A study of Mus musculus with 4 samples.

Results

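Sertoli cells of the XY mouse gonad were followed from E11.5 to E12.5, the day on which the fetal testis takes shape. A cell was counted as a Sertoli cell if it held at least 1 unique molecular identifier (UMI, a tag that marks 1 captured RNA molecule) of at least 3 of the 5 markers Sox9, Aard, Amh, Dhh and Ptgds, if the UMIs of these 5 genes summed to at least 10 per 10000 UMIs of the cell, and if fewer than 3 of the 4 germ cell markers Pou5f1, Dppa3, Dazl and Ddx4 were detected. This gave 376 of the 2101 retained cells at E11.5 and 568 of the 2764 at E12.5, or 944 of 4865 cells in these libraries and of 10987 retained cells in the whole series. They were 17.9% of the retained E11.5 cells (exact 95% binomial interval, 16.3 to 19.6) and 20.5% of the retained E12.5 cells (19.1 to 22.1). These and all other intervals cover counting error only.

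Sertoli cells are the supporting cells of the testis. In the XY gonad they arise from cells of the coelomic epithelium and the early supporting lineage when the Y-linked gene Sry switches on Sox9, and they are the first somatic cells to take a male fate. They then enclose the germ cells in testis cords, lay down the basement membrane of the cords together with the surrounding cells, and signal to the other lineages, among others through anti-Müllerian hormone, which removes the female duct, and desert hedgehog, which acts on the precursors of Leydig cells.

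Each stage was represented by 1 droplet library of in vivo gonads of ICR mice, titled XY, from which the mesonephros had been removed, dissociated with papain and prepared with version 2 of the 3′ reagent kit. The number of embryos pooled in a library is not given in the sources used here. The other libraries of the series, XY gonads of E10.5 and cells induced from ESCs at D6, served only to show where the marker rule found cells. By the study's methods, the E10.5 sample also held dorsal mesenchyme around the gonads. The E11.5 library held 32519441 UMIs in 2449 barcodes and the E12.5 library 42242194 UMIs in 3176 barcodes. With 1 library per stage, stage and library cannot be told apart, and no test between stages was possible. Cells with 500 to 5000 genes and less than 20% mitochondrial UMIs were retained at E11.5, and cells with 2000 to 5000 genes and less than 8% at E12.5. The Sertoli cells contributed 4821286 UMIs at E11.5 and 6585196 at E12.5, with medians of 13003.5 and 10712 UMIs and of 3409 and 3226 genes per cell. Their median share of mitochondrial UMIs was 3.95% and 3.75%. At E11.5, 43 of the Sertoli cells had fewer than 5000 UMIs, and at E12.5 none did (0 of 568). The libraries shared 10 cell barcodes, of which 0 belonged to Sertoli cells of both.

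A protocol field of the labels names female tissue, whereas the sample titles give XY. In the Sertoli cells the Y-linked genes Ddx3y and Eif2s3y, a helicase and a translation factor, were present at 48.7 and 69.9 CPM (UMIs of the gene per 1000000 UMIs of the cells) at E11.5 and at 71.2 and 64.2 CPM at E12.5. Xist, the RNA of the inactive X chromosome, had 2 UMIs at E11.5 and 1 at E12.5.

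Promoter sequences were available for 2 of the 5 markers of the rule, Dhh and Ptgds. The windows of Cst9, the most abundant of the other Sertoli genes examined, and of Inha, the inhibin alpha subunit, were read beside them. They are shown because these genes were higher at E12.5 together, and so that the reader can see which short motifs known for Sertoli cell factors stand near their starts. Each window runs from 250 bases before to 50 bases after the transcription start (RefSeq, GRCm38.p6) and is read 5′ to 3′ along the gene. Capitals mark ACAAAG or ACAATG, motifs of the SOX family, and AGGTCA, the core motif of nuclear receptors such as Nr5a1, on either strand. The windows lie at chr15:98898491-98898790 (Dhh, minus strand), chr2:25469700-25469999 (Ptgds, minus strand), chr2:148834897-148835196 (Cst9, plus strand) and chr1:75507359-75507658 (Inha, plus strand).
Dhh: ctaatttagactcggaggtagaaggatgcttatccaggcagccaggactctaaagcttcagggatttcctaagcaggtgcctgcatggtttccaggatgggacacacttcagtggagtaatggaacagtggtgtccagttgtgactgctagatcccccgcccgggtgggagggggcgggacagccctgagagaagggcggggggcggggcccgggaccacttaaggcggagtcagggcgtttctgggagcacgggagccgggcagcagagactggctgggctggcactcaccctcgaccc
Ptgds: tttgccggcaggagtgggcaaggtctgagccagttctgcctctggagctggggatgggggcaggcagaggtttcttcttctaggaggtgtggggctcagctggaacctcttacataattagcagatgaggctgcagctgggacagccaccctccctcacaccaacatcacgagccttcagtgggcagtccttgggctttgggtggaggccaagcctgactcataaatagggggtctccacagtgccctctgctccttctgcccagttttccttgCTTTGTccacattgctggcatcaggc
Cst9: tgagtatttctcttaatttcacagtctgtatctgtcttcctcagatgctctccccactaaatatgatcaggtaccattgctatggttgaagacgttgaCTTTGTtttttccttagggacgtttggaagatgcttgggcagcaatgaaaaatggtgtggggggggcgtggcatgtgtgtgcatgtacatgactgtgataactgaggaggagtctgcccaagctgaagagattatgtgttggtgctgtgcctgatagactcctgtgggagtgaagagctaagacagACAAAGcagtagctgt
Inha: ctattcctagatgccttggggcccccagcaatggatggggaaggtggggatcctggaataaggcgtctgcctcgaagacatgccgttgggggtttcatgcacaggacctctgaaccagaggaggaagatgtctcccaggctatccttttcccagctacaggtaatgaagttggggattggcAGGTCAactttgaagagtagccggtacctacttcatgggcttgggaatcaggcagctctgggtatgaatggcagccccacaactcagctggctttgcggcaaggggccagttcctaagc

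The Ptgds window held ACAAAG once, on the opposite strand from base 25 after the start. The Cst9 window held it on the opposite strand from base -152 and on the strand of the gene from base 35. The Inha window held AGGTCA on the strand of the gene from base -69; GENCODE places the start of Inha further upstream, at base 75507077, so that this window lies within the gene in that annotation. The Dhh window held none of the 3 motifs, which says only that these letters are not in these bases. Of all 32851 promoter windows of this length, 18.71% held ACAAAG, 12.57% ACAATG and 16.26% AGGTCA, and a match is not evidence of binding.

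The cells were chosen by the UMI counts of the 5 markers, so their values are given as a description. The markers differed unequally between the stages. Amh, the gene of anti-Müllerian hormone, was at 110 CPM at E11.5 and at 1012 CPM at E12.5, which is 9.19-fold higher (8.41 to 10.1). Ptgds, which encodes prostaglandin D synthase, was at 402 and 1401 CPM, 3.48-fold higher (3.32 to 3.66). Sox9, the transcription factor that sets the Sertoli cell fate, was at 834 CPM at E11.5 and at 445 CPM at E12.5, and was the only marker of the 5 that was lower at the later stage. Dhh, the desert hedgehog ligand, was at 161 and 289 CPM, and Aard, a gene transcribed in Sertoli cells, at 1559 and 2661 CPM. On the log2 scale the differences of E12.5 from E11.5 were 3.20 (3.07 to 3.33) for Amh, 1.80 (1.73 to 1.87) for Ptgds, 0.84 (0.72 to 0.97) for Dhh, 0.77 (0.73 to 0.81) for Aard and -0.91 (-0.97 to -0.84) for Sox9. When each marker in turn was left out of the rule and cells with 3 of the other 4 were taken, its own difference was 3.30 for Amh, 1.77 for Ptgds, 0.87 for Dhh, 0.68 for Aard and -0.80 for Sox9.

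Fewer of the markers were detected per cell at E11.5, which the rule itself bears on. Exactly 3, 4 and 5 of the markers were detected in 100, 141 and 135 cells at E11.5 and in 10, 79 and 479 cells at E12.5. All 5 were present in 35.9% of the E11.5 cells (31.1 to 41.0) and 84.3% of the E12.5 cells (81.1 to 87.2). After each cell was thinned to 5000 UMIs, which left 333 and 568 cells, these shares were 14.7% and 51.9%. The lowest summed marker level inside the rule was 10.1 per 10000 UMIs at E11.5 and 11.1 at E12.5. Among cells with 3 or more markers that it left out, the highest was 9.89 and 9.21. The limit on the sum left out 28 such cells at E11.5 and 15 at E12.5. A further 51 and 4 cells reached it with only 2 markers. The median sum of the members was 27.2 per 10000 at E11.5 and 55.8 at E12.5.

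Amh separated the stages cell by cell more than the other markers did. At E11.5, 52.4% of the Sertoli cells had an Amh UMI, and at E12.5 97.4%. In cells thinned to 5000 UMIs the shares were 31.2% (26.3 to 36.5) and 90.1% (87.4 to 92.5). The median Amh level per cell was 0.52 per 10000 UMIs at E11.5, with 10th and 90th percentiles of 0 and 3.86, and 8.02 at E12.5, with percentiles of 1.76 and 21.5. Only 2.13% of the E11.5 cells reached the E12.5 median. Ptgds had medians of 2.54 and 11.55 per 10000, Aard of 11.8 and 21.3, and Dhh of 1.21 and 2.67. For Sox9 the medians were 8.11 and 3.88, and 82.4% of the E11.5 cells were at or above the E12.5 median.

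Germ cells of the same libraries were used for the background share of cells with a UMI; whether their UMIs came from free RNA, doublets or expression was not tested. Among germ cells thinned to the same 5000 UMIs, Amh was detected in 0 of 150 cells at E11.5, which allows a share of up to 2% (3 counts over the number of cells), and in 1.1% at E12.5. Aard was detected in 24.0% and 6.7% of the germ cells, beside 97.9% and 99.5% of the Sertoli cells. Sox9, Dhh and Ptgds were detected in 4.0%, 0.7% and 2.0% of germ cells at E11.5 and in 0.9%, 0.4% and 2.0% at E12.5, against at least 48.9% of the Sertoli cells. Without thinning, Aard was detected in 44.1% and 24.5% of germ cells, whose median depth was 18036 and 18639 UMIs.

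**Figure D1:**
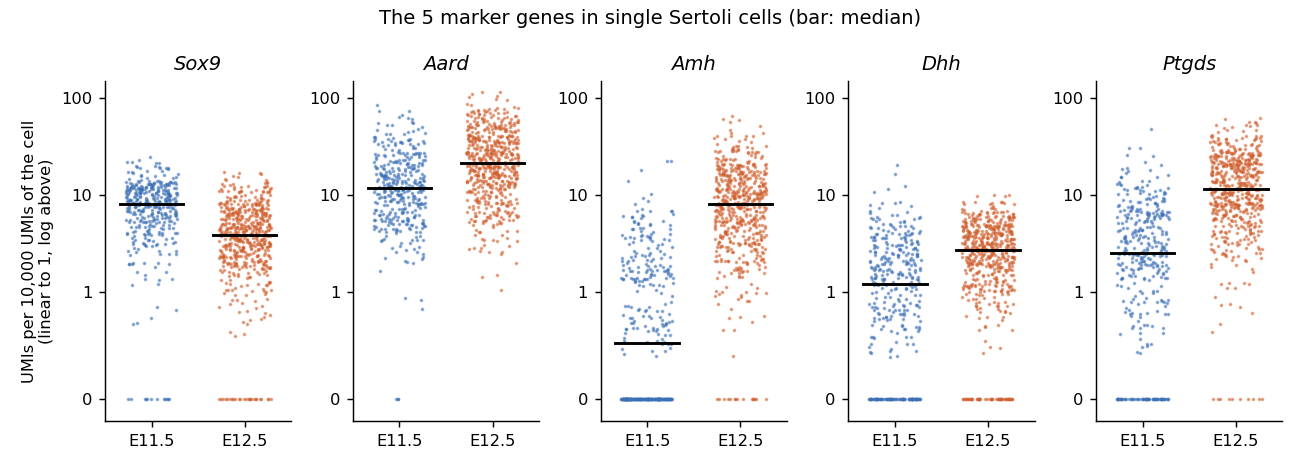
Levels of the 5 rule markers in single Sertoli cells, in UMIs per 10000 UMIs of the cell, for 376 cells at E11.5 and 568 at E12.5; each point is a cell, the bar is the median, and the axis is linear up to 1 and logarithmic above. Amh has a median of 0.52 at E11.5 and 8.02 at E12.5, while Sox9 has a lower median at E12.5 (3.88) than at E11.5 (8.11).

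The label was checked against genes known for Sertoli cells that the rule did not use. The 24 genes of this list summed to 4719 CPM in the Sertoli cells at E11.5 and 9737 CPM at E12.5, beside 359 and 207 CPM in the other somatic cells of the same libraries. Other somatic cells are the retained cells outside the rule with fewer than 3 markers each of germ, erythroid, endothelial and macrophage cells, 1496 at E11.5 and 1712 at E12.5. This group was not free of blood RNA at E11.5, where 12 erythroid genes summed to 5346 CPM, against 87.3 CPM at E12.5. These contrasts describe cells chosen for correlated genes and are no test of identity.

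Across the transcriptome, most genes of the Sertoli cells differed little between the stages. UMIs were summed over the cells of a stage and scaled to CPM, and 3084 genes were compared, those with at least 50 CPM in the higher stage and at least 20 UMIs over both. Of these, 94 genes (3.05%) were at least 2-fold higher at E12.5 and 53 (1.72%) at least 2-fold lower, 147 in all (4.77%), and 76.6% were within 0.5 on the log2 scale. The median of all compared genes was 0.17 on the log2 scale, so that a typical gene stood slightly above 0, and differences are best read against this value. When libraries were instead scaled by the TMM factor, or by total UMIs without marker, mitochondrial, ribosomal and globin genes, the split was 80 higher and 69 lower, or 53.7% of the genes past 2-fold higher in place of 63.9%. In the other somatic cells, 1.41% of 3051 genes were at least 2-fold higher and 1.34% at least 2-fold lower.

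**Figure D2:**
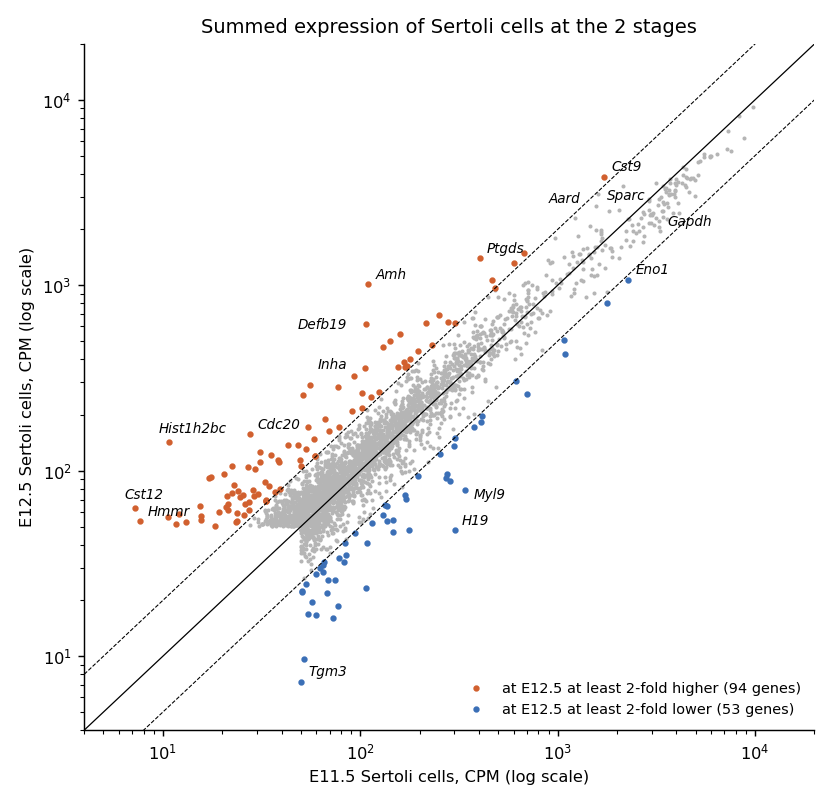
Summed expression of each of the 3084 compared genes in Sertoli cells of E11.5 (x axis) and E12.5 (y axis), both in CPM on log scales, with the line of equality and dashed lines at 2-fold. The 94 genes at least 2-fold higher at E12.5 include Amh, Defb19 and Hist1h2bc, and the 53 at least 2-fold lower include H19, Myl9 and Tgm3.

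Among the genes with the greatest differences above 0, Defb19, a beta-defensin made in the fetal testis, was at 107 CPM at E11.5 and 622 CPM at E12.5. Cst12, a cystatin-related gene, was at 7.26 and 63.2 CPM, and Serpina3a, a serine protease inhibitor, at 55.6 and 291 CPM. The log2 differences of these genes were 2.54, 3.12 and 2.39. Pcolce, an enhancer of procollagen processing, was at 51.4 and 257 CPM, and the chemokine gene Ccl17 at 15.3 and 64.8 CPM. Kazald1, which encodes a secreted protein with a Kazal-type domain, was at 22.4 and 107 CPM, against 0.876 and 1.41 CPM in the other somatic cells. Of the 94 genes, 8 were also at least 2-fold higher at E12.5 in the other somatic cells, as were 0.519% of all 3084 compared genes. A log2 difference under 0.5 in the other somatic cells was found for 65 of the 94 and for 97.0% of the compared genes.

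Of the 24 other Sertoli genes, 23 had at least 20 UMIs, 10 were at least 2-fold higher at E12.5 and 1 at least 2-fold lower, and their median log2 difference was 0.92. Among all 11385 genes with 20 UMIs, 4.97% were at least 2-fold higher and 4.38% lower, 58.0% were above 0 and the median was 0.09, which are the values to set beside each list. Hsd17b3, the enzyme that completes testosterone synthesis in fetal Sertoli cells, was at 31.1 and 126 CPM. Inha, the alpha subunit of inhibin, was at 92.9 and 324 CPM, whereas Inhbb, the beta subunit, was at 100.4 and 89.7 CPM. The subunits thus stood at about the same level at E11.5 and apart at E12.5. Vnn1, the pantetheinase vanin, was at 106 and 360 CPM, Col9a3, a collagen chain, at 216 and 624 CPM, and clusterin (Clu), a secreted chaperone, at 130 and 466 CPM. Cldn11, the claudin of Sertoli cell tight junctions, was at 12.0 and 58.8 CPM, and so reached 50 CPM at E12.5 only. The lower gene was Nxf3, a relative of RNA export factors, with 53 UMIs at E11.5 and 19 at E12.5. Cyp26b1, which degrades retinoic acid and so shields germ cells, was at 168 and 118 CPM. Fshr, the receptor of follicle-stimulating hormone, had no UMI at E11.5 and was at 0.304 CPM at E12.5.

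The cystatin genes of chromosome 2 differed from one another although they are neighbours. Cst9 (148835147 to 148838738, plus strand, GRCm38) was at 1713 CPM at E11.5 and 3859 CPM at E12.5, the most abundant gene of the list at both stages. Cst12 (148789361 to 148793546, plus strand) was 8.70-fold higher (6.16 to 12.7). Cst8 (148798785 to 148805595, plus strand), which lies between them, was at 545 and 481 CPM, a log2 difference of -0.18 (-0.25 to -0.10), and Cst11 (148768609 to 148771497, minus strand) was at 54.3 and 46.9 CPM. Cst11 was chosen after its values were seen. Each of Cst8 and Cst9 was below 60 CPM in the other somatic cells.

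Genes of sex determination did not follow Amh. Of the 18 genes of this list, 16 had at least 20 UMIs, none of these 16 reached 2-fold in either direction, 3 were above 0, and the median log2 difference was -0.41. Sry had 2 UMIs at E11.5 and 0 at E12.5, which allows up to 3 UMIs at this depth. Gadd45g, an upstream activator of Sry, was at 446 and 238 CPM, and Fgf9, the growth factor that maintains Sox9, at 249 and 132 CPM. Both lay close to the difference of Sox9, at -0.90 and -0.91 on the log2 scale. With the TMM factor Sox9 stood at -1.01, so whether genes at this level pass 2-fold depends on the scaling. Nr5a1, the nuclear receptor needed for gonad formation, was at 203 and 140 CPM, and Gata4, which acts with it on the Amh promoter, at 258 and 182 CPM. Wt1, a zinc finger factor of the gonad and its supporting cells, was at 355 and 337 CPM and Sox8, a relative of Sox9, at 47.3 and 44.5 CPM. Dmrt1, which keeps Sertoli cells male, was at 37.3 and 50.1 CPM, with a log2 difference of 0.42 (0.16 to 0.69).

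Genes of the alternative fate and of earlier states were mostly below 0. Of the 12 granulosa genes, 6 had at least 20 UMIs, 1 of these was above 0, and their median log2 difference was -0.63. Foxl2, the transcription factor of granulosa cells, had 3 and 2 UMIs at the earlier and later stage. Lgr5, a receptor of the Wnt pathway, was the most abundant of the list at 51.4 and 36.1 CPM. The 12 genes summed to 167 and 125 CPM in the Sertoli cells, beside 162 and 94.8 CPM in the other somatic cells. Wnt4, the ovarian signal, was at 25.3 and 13.2 CPM, and Runx1, a transcription factor shared by early supporting cells, at 42.5 and 25.2 CPM. Of the 12 genes of the coelomic epithelium and progenitors, 7 had at least 20 UMIs, of which 2 were above 0, with a median of -0.77. Lhx9, a transcription factor of gonadal progenitors, was at 23.4 and 13.8 CPM in the Sertoli cells and at 289 CPM in the other somatic cells of both stages.

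Signals to other lineages differed in both directions. Of 21 secreted signals, 16 had at least 20 UMIs, 3 were at least 2-fold higher at E12.5 and 5 at least 2-fold lower, with a median of -0.23 on the log2 scale. Wnt6, a Wnt ligand, was at 279 and 633 CPM, and Fgf18, a fibroblast growth factor, at 3.94 and 23.4 CPM. Kitl, the ligand of the Kit receptor on germ cells, was at 184 and 235 CPM, and Pdgfa, which acts on interstitial cells, at 141 and 142 CPM. Igf1, an insulin-like growth factor, was at 10.6 and 1.67 CPM. On the side of reception, Amhr2, the receptor of anti-Müllerian hormone, was at 124 and 220 CPM in the Sertoli cells and at 140 and 78.9 CPM in the other somatic cells. Ptch1, receptor and target of hedgehog signals, was at 54.1 and 69.1 CPM in the Sertoli cells and at 25.4 and 102 CPM in the other somatic cells.

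**Figure D3:**
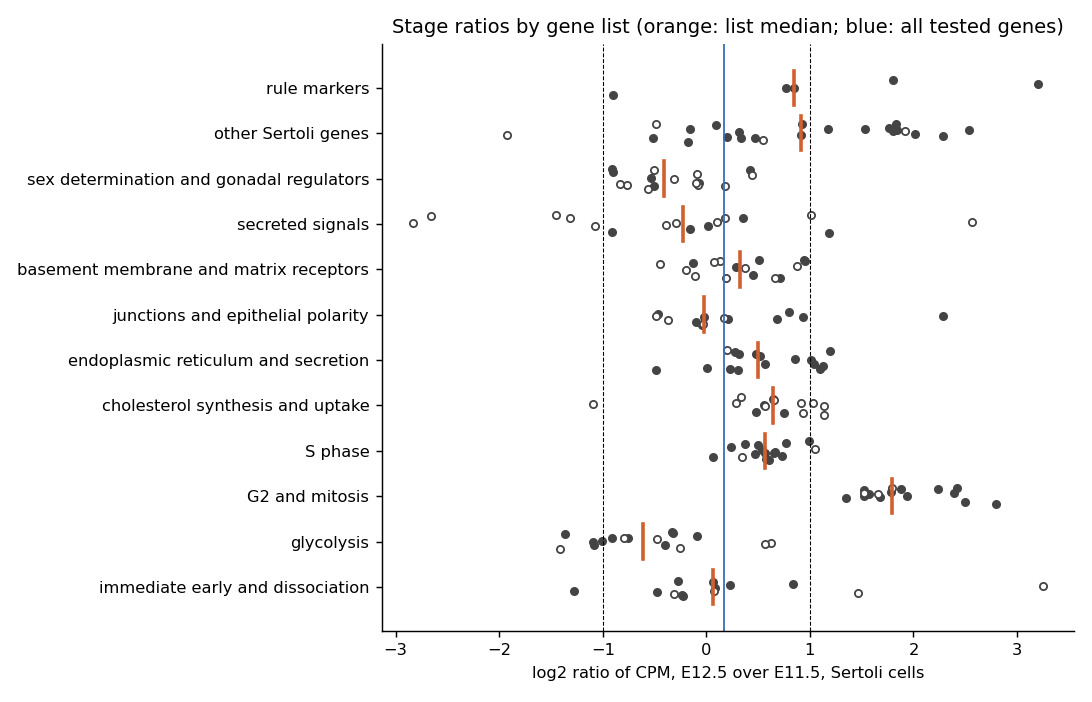
Difference of E12.5 from E11.5 Sertoli cells on the log2 scale (x axis) for each gene with at least 20 UMIs in 12 lists; filled points reached 50 CPM and open points did not, orange bars are list medians, the blue line is the median of all compared genes (0.17) and dashed lines mark 2-fold. The G2 and mitosis list lies highest (median 1.79), the other Sertoli genes have a median of 0.92, and the glycolysis list has a median of -0.61.

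All 16 genes of G2 and mitosis were at least 2-fold higher at E12.5, with log2 differences from 1.35 to 2.80 and a median of 1.79; 13 of them reached 50 CPM and were among the 3084 compared. Cdc20, an activator of the anaphase-promoting complex, was at 27.8 and 157 CPM. Hmmr, a spindle protein, was at 7.67 and 53.3 CPM, and Top2a, the topoisomerase of replicating and dividing cells, at 58.1 and 148 CPM. Together the 16 genes summed to 491 CPM at E11.5 and 1750 CPM at E12.5 in the Sertoli cells, below the 2098 and 2876 CPM of the other somatic cells at both stages. The S phase genes differed less. All 16 were above 0, with a median of 0.57, and 1 was at least 2-fold higher; Pcna, the clamp of the replication fork, was at 45.4 and 63.0 CPM. Of 12 genes of cell cycle inhibitors and G1 cyclins, 10 had at least 20 UMIs. Of these 10, 8 were above 0 and 1 was at least 2-fold higher, with a median of 0.17. The inhibitor gene Cdkn1c had the lowest difference of the 10, at 429 and 313 CPM.

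In single cells thinned to 5000 UMIs, a UMI of Top2a or Mki67, both markers of cycling cells, was found in 13.8% of the Sertoli cells at E11.5 (10.3 to 18.0) and in 29.8% at E12.5 (26.0 to 33.7). The other somatic cells were at 38.9% and 50.7%, and germ cells at 86.7% and 90.6%. Sertoli cells thus had the lowest share of these groups at both stages. At least 3 of the G2 and mitosis genes were detected in 82 Sertoli cells at E11.5 and in 252 at E12.5. Without these cells, which was tried after the data were seen, 83 genes were at least 2-fold higher, of which 56 were among the 94, and 52 at least 2-fold lower, of which 43 were among the 53. The gene with the greatest difference above 0 among the 3084 compared, Hist1h2bc, a histone gene, was at 10.8 and 144 CPM in the Sertoli cells and at 32.3 and 56.4 CPM in the other somatic cells.

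**Figure D4:**
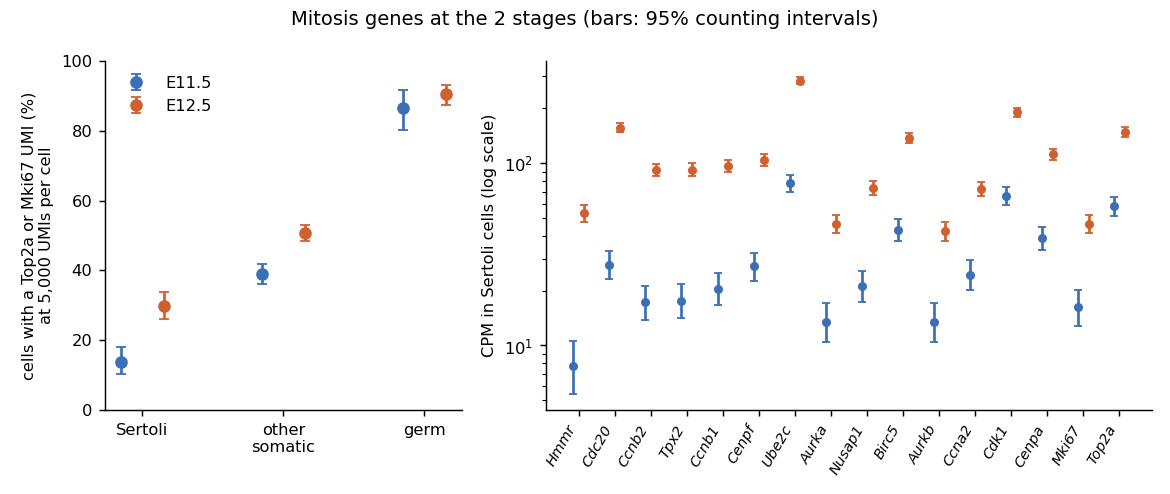
Left, share of cells (%) with a UMI of Top2a or Mki67 after thinning to 5000 UMIs, for Sertoli, other somatic and germ cells at E11.5 (blue) and E12.5 (orange); right, CPM on a log scale of the 16 G2 and mitosis genes in Sertoli cells, with 95% counting intervals as bars in both. Sertoli cells stand at 13.8% and 29.8%, below the other groups at each stage, and each of the 16 genes is higher at E12.5.

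Most genes of the secretory pathway and of sterol synthesis were above 0, but few of them reached 2-fold. Of 16 genes of the endoplasmic reticulum and secretion, 15 were above 0, where 58.0% of all genes with 20 UMIs were, and 5 at least 2-fold higher, with a median of 0.50. Hspa5, the main chaperone of the endoplasmic reticulum, was at 480 and 967 CPM. Calr and Hsp90b1, a lectin chaperone and a chaperone of the same compartment, were at 602 and 463 CPM at E11.5 and at 1313 and 1062 CPM at E12.5. Xbp1, a regulator of this pathway, was at 64.1 and 64.5 CPM. The 15 of these genes that reached 50 CPM had a median of 0.52 in the Sertoli cells and -0.02 in the other somatic cells. Of 14 genes of cholesterol synthesis and uptake, 13 were above 0, 3 were at least 2-fold higher and 1 at least 2-fold lower, with a median of 0.65. Sqle, the squalene epoxidase, was at 14.9 and 32.8 CPM, and Insig1, which restrains the pathway, at 30.9 and 14.4 CPM.

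Matrix and junction genes differed by less. Of 17 genes of the basement membrane and its receptors, 16 had at least 20 UMIs, none of these 16 reached 2-fold and 12 were above 0, beside 58.0% of all genes, with a median of 0.33. Sparc, a matrix glycoprotein, was at 1601 and 3090 CPM, and Itga6, a laminin receptor subunit, at 47.5 and 91.1 CPM. Col18a1, a basement membrane collagen, was at 495 and 675 CPM, beside 34.2 and 35.9 CPM in the other somatic cells. Of 18 genes of junctions and polarity, 13 had at least 20 UMIs and Cldn11 alone reached 2-fold. Their median of -0.02 took either sign under the alternative settings. Aldh1a1, which makes retinoic acid, was at 442 and 869 CPM. Of 12 retinoid genes, 9 had at least 20 UMIs, of which 4 were at least 2-fold lower and none of the 9 at least 2-fold higher.

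Most glycolytic genes were below 0, in the Sertoli cells and in the other somatic cells. Of 17 genes, 16 had at least 20 UMIs, 5 were at least 2-fold lower, 2 were above 0, and the median was -0.61. Pgk1, the phosphoglycerate kinase, was at 1094 and 425 CPM, Ldha, the lactate dehydrogenase subunit, at 1084 and 508 CPM, and Gapdh at 3319 and 1962 CPM. The 10 of these genes that reached 50 CPM had a median of -0.83 in the Sertoli cells and -0.75 in the other somatic cells. Eno1, the enolase, was at 2276 and 1073 CPM in the Sertoli cells and at 844 and 437 CPM in the other somatic cells. Eno1b, a near copy of Eno1, was at 73.2 and 16.1 CPM, and the reads of these genes may not have been separated.

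Of the genes lower at E12.5, H19 and Mest differed less in the cells around the Sertoli cells. H19, an imprinted noncoding RNA, was at 302 CPM at E11.5 and 48.0 CPM at E12.5 in the Sertoli cells, and at 535 and 470 CPM in the other somatic cells. Mest, an imprinted gene of mesodermal cells, was at 273 and 91.0 CPM against 1046 and 945 CPM. In both cases the Sertoli cells were already below the other cells at E11.5. No list of imprinted genes was examined. Of 4 others outside the lists, chosen after their values were seen, Peg3 was at 416 and 196 CPM in the Sertoli cells. Dlk1 was at 95.8 and 95.5 CPM, Meg3 at 297 and 425 CPM and Igf2r at 17.2 and 15.6 CPM. Igf2 and Cdkn1c, members of other lists, were looked at with them, and Cdkn1c was at 429 and 313 CPM. Igfbp4, a binding protein of insulin-like growth factors, was at 177 and 47.8 CPM against 392 and 378 CPM, and Myl9, a myosin light chain of contractile cells, was at 338 and 78.4 CPM in the Sertoli cells. Of the 53 lower genes, 19 were also at least 2-fold lower in the other somatic cells, beside 3.66% of all compared genes, and 19 were above -0.5 there, beside 91.6% of them.

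Within E11.5, and likewise within E12.5, the levels of H19 and Mest were higher in cells with fewer markers. Among all E11.5 cells with 3, 4 and 5 markers detected that had fewer than 3 markers of germ, blood or endothelial cells, Mest was at 569, 294 and 161 CPM and H19 at 400, 335 and 233 CPM (as a description, since these cells share a library). The median depth of these cells was 11443, 12932 and 14080 UMIs, since markers were counted without thinning, and its part in these levels was not tested. Cst9 went the other way, at 811, 1646 and 2100 CPM. In cells with 0 markers, Mest was at 1077 and Cst9 at 12.8 CPM. Within E12.5, the 21, 83 and 479 cells with 3, 4 and 5 markers had Mest at 568, 156 and 85.2 CPM. H19 was there at 440, 64.9 and 46.0 CPM. Exactly 3 markers were detected in 100 of the 376 Sertoli cells at E11.5 and in 10 of the 568 at E12.5. The part of this in the stage differences of H19 and Mest was not tested.

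Other genes that were lower at E12.5 were higher, within E11.5, in cells with markers of the rule than in cells without. Tgm3, a transglutaminase, was at 50.2 and 7.29 CPM in the Sertoli cells, and within E11.5 at 7.49 CPM in cells with 0 markers and at 79.4, 58.0 and 27.1 CPM in cells with 3, 4 and 5. It was thus lower with more markers, as H19 and Mest were, whereas Zar1 was at 32.2, 51.2 and 77.3 CPM. Nup62cl, a relative of a nuclear pore protein, was at 106 and 23.2 CPM. Pglyrp1, a peptidoglycan recognition protein, was at 286 and 87.8 CPM, and Cited4, a transcriptional coregulator, at 146 and 46.9 CPM. These were also lower at E12.5 in the other somatic cells, where at E11.5 the 167 of 1496 cells that held at least 2 markers of the rule accounted for between 40.9% and 67.9% of their UMIs. The same held for 3 neighbouring genes. On chromosome 5 (GRCm38), Zar1 (72576806 to 72581254, minus strand), Cnga1 (72603696 to 72644275, minus strand) and Nipal1 (72647795 to 72671078, plus strand) were at 59.7, 51.6 and 77.4 CPM at E11.5 and at 16.7, 9.72 and 18.7 CPM at E12.5. Zar1 is known as an egg gene, Cnga1 encodes a cation channel of photoreceptors and Nipal1 a putative magnesium transporter. A flanking gene, Nfxl1, chosen after its values were seen, was at 57.2 and 37.4 CPM, a log2 difference of -0.62 (-0.87 to -0.36). Corin, Slain2, Slc10a4, Txk and Tec were also looked at and are not given here, so Nfxl1 does not stand for the region.

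**Figure D5:**
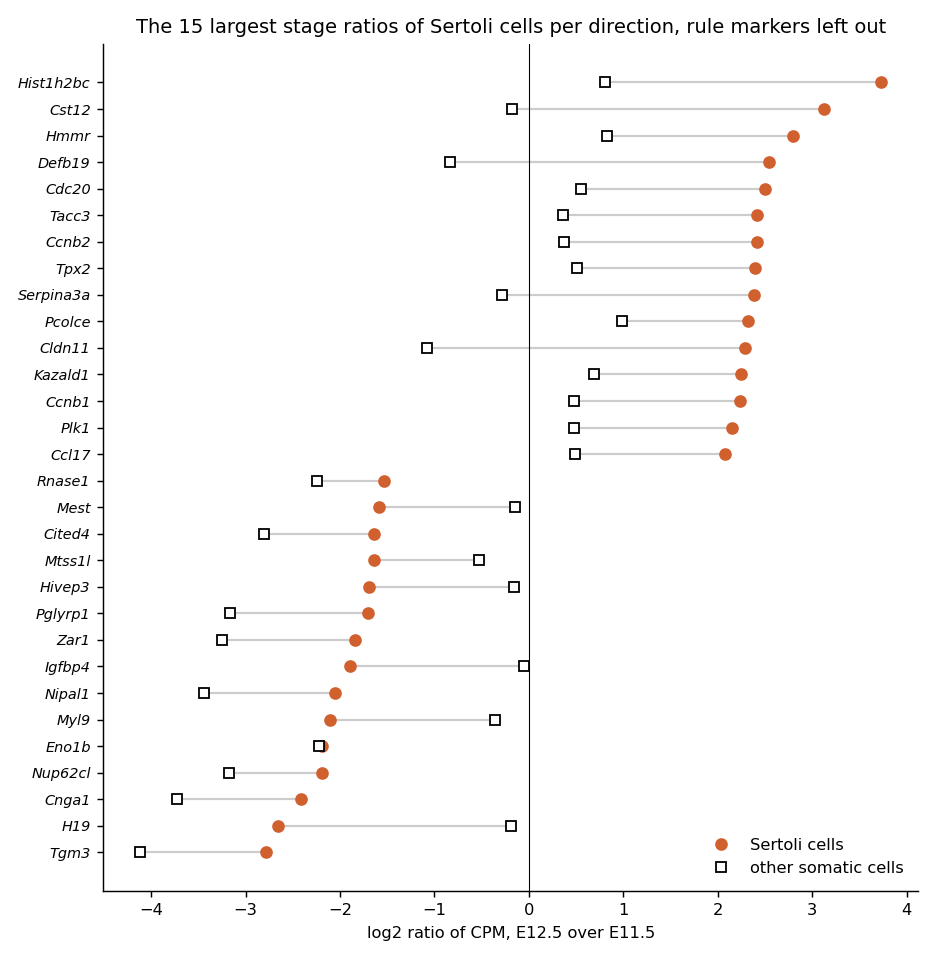
Difference of E12.5 from E11.5 on the log2 scale (x axis) in Sertoli cells (filled circles) and in the other somatic cells of the same libraries (open squares), for the 15 genes per direction with the greatest differences in Sertoli cells, rule markers left out; a grey line joins the values of a gene. H19, Mest and Igfbp4 were lower in Sertoli cells while the other somatic cells lie near 0, and Tgm3, Cnga1 and Zar1 were lower in both.

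The E11.5 Sertoli cells were also compared by whether they held an Amh UMI. In cells thinned to 5000 UMIs, 104 had an Amh UMI and 229 did not, with median depths of 13153.5 and 13820 UMIs before thinning. Ptgds was at 564 CPM in the cells with Amh and 324 CPM in those without, Vnn1 at 160 and 82.2 CPM, and Hspa5 at 667 and 377 CPM. Sox9 was at 778 and 866 CPM, H19 at 204 and 346 CPM, and Mest at 161 and 314 CPM. Of the genes at least 2-fold higher at E12.5, 41 outside the rule markers reached 50 CPM in these E11.5 cells, and 36 of them were higher in the cells with Amh, with a median log2 difference of 0.30. Over all 2812 genes compared, 54.7% were higher and the median was 0.02. Of the 53 genes lower at E12.5, 36 were lower in the cells with Amh, with a median of -0.13. Pglyrp1 was among those of the 53 that were not lower, at 371 CPM with and 254 CPM without Amh. Zar1, Eno1b and Nipal1 were also above 0, with intervals that included 0. The glycolytic genes at least 2-fold lower at E12.5 that reached 50 CPM were Eno1, Pgk1, Ldha and Tpi1. They were higher in the cells with Amh, by 0.10, 0.05, 0.23 and 0.37 on the log2 scale, opposite to their stage difference. The interval of Pgk1 included 0 (-0.04 to 0.13). Fgf9 was at 252 CPM with and 254 CPM without Amh. The split used the thinned counts, so cells counted as without Amh could still hold Amh UMIs at full depth. Amh was at 264 CPM in the cells with Amh and 37.2 CPM in those without. These are values of 1 library and of cells divided by a gene of the rule, which bears on the split. Cells with an Amh UMI at full depth needed fewer of the other markers to meet the rule, so the groups were selected differently. The genes higher or lower at E12.5 were also called in part from these same E11.5 cells. The shares therefore do not tell whether cells with Amh stood closer to E12.5, and no test was made.

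Markers of other cell types were summed in the Sertoli cells and in the other somatic cells. Germ cell genes other than the 4 of the rule included Utf1, a pluripotency cofactor, at 81.1 and 61.0 CPM, while Nanog, Mael and Prdm1 had no UMI at either stage. The germ cell list of 13 genes, which also holds germ markers of the rule, summed to 106 and 87.8 CPM. This was above the 49.8 and 32.5 CPM of the other somatic cells. The 4 germ markers of the rule alone summed to 7.26 and 9.11 CPM in the Sertoli cells. The 4 germ markers of the rule were absent from 344 of the 376 and from 511 of the 568 cells. Erythroid genes summed to 138 and 118 CPM over 12 genes, of which Hbb-y, an embryonic globin, made up 69.9 and 56.0 CPM and Gata1, the erythroid transcription factor, had no UMI at either stage, while in the other somatic cells they summed to 5346 and 87.3 CPM. The 10 interstitial genes summed to 108 and 88.8 CPM, against 1217 and 1649 CPM in the other somatic cells. The 8 Leydig and steroidogenic genes summed to 127 and 98.7 CPM, against 83.2 and 92.1 CPM, and Fdx1, an electron carrier of many tissues, made up 72.0 and 73.3 CPM of them. The 8 genes of the supporting-like lineage, a gonadal cell type that also holds Sox9, summed to 368 and 342 CPM, against 1205 and 1030 CPM, with Id3, a transcriptional inhibitor, as the most abundant at 163 and 96.7 CPM; its marker Pax8 was at 2.90 and 2.13 CPM. Over 9 endothelial genes the sums were 37.1 and 36.1 CPM, with Egfl7 as the most abundant, over 8 macrophage genes 0.415 and 1.21 CPM, and over 8 mesonephric genes 1.66 and 1.97 CPM. Of 14 immediate early genes, which respond to dissociation, 13 had at least 20 UMIs, 2 were at least 2-fold higher and 1 at least 2-fold lower; Fosb was at 85.0 and 35.1 CPM and Atf3 at 4.56 and 12.6 CPM, and Hspa1a, a heat shock gene, had 2 and 26 UMIs. The part of other cells and of dissociation in the stage differences was not tested.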

How the data were processed

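The authors deposited, for each library, raw UMI counts per gene and cell barcode. Their methods and processing notes name Cell Ranger 3.0.2 and mm10, whereas the file headers name Cell Ranger 6.0.0. Matrices were read for 31053 gene identifiers, of which 99.6% were in the GENCODE M21 annotation (GRCm38) used for positions. Cells were retained within each library's own limits, taken from the study's methods, and doublets were left in; Scrublet in scanpy 1.11.5 marked 35 of 2101 cells at E11.5 and 27 of 2764 at E12.5. UMIs were summed over the cells of a group and given as CPM with exact Poisson intervals. Ratios carry exact conditional binomial intervals, and shares exact (Clopper-Pearson) intervals, all at 95%. No test was made, with 1 library per stage. Cells were thinned at random to 5000 UMIs to compare shares. The members and gene lists were chosen with earlier results of these data known. Named genes are rule markers, list members, the 15 greatest differences per direction outside the rule markers and the 10 most abundant; others are said to be chosen later. The ratio step was tested on simulated data. Python 3.11.15, numpy 2.4.6, scipy 1.17.1, pandas 2.3.3 and, for TMM, edgeR 4.0.16 were used.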

Additional observations from a re-analysis of the deposited data

Results flagged for a closer look

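In the library of ESC-derived D6 cells, which no stage comparison used, 49 of 2285 retained cells met the same marker rule, or 2.14% (1.59 to 2.83), whereas 0 of 3837 did at E10.5, which allows a share of up to 0.0782% (3 counts over the number of cells; the exact upper limit is 0.0961%). They were marked because they are a signal in data outside the stage comparison. Amh was at 993 CPM in these 49 cells, Ptgds at 717 CPM, Aard at 573 CPM, Sox9 at 330 CPM and Dhh at 102 CPM. Library kit, culture and cell sorting differ from the in vivo libraries and cannot be told apart from origin. The E10.5 share is of a sample that also held dorsal mesenchyme around the gonads, not of gonad cells alone.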

How the results depend on the processing

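No paired analysis was possible because each stage had 1 library. Without the limit on CPM, 566 genes were at least 2-fold higher and 499 lower, and with at least 200 CPM 32 and 17. Under the other settings of the gene comparison, the higher count was 80 to 100 and the lower 46 to 69. The shares of Sertoli cells at E11.5 and E12.5 were 20.3% and 20.7% with at least 2 markers, 13.1% and 20.2% with at least 4, 13.1% and 19.2% with 20 summed UMIs per 10000, and 20.0% and 20.5% with the E12.5 cell limits. The share with Top2a or Mki67 was 20.2% at E11.5 and 37.3% at E12.5 without thinning, and 10.7% and 21.8% at 2500 UMIs. Among the genes recomputed, the log2 difference of Plk1 alone reversed, to -1.67 without the cells that held at least 3 G2 and mitosis genes, a setting chosen after seeing the data that removes such cells by construction. The medians of AMH receptors, immediate early, junction, germ, endothelial and interstitial genes and of the supporting-like lineage crossed 0 between settings. Depth limits the genes below 20 UMIs, and 1 library per stage limits every comparison.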

Other observations

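Digestive enzyme genes of the exocrine pancreas were present in the Sertoli cells. The 12 genes of this list summed to 417 CPM at E11.5 and 320 CPM at E12.5. In the other somatic cells they summed to 267 and 151 CPM. Of the 12, 6 had at least 20 UMIs, of which 2 were above 0, with a median of -0.74 on the log2 scale. Ctrb1, a chymotrypsinogen, was at 34.4 CPM at E11.5 and 82.6 CPM at E12.5, beside 9.01 and 1.19 CPM in the other somatic cells. Cela3b, an elastase, was at 14.5 and 33.4 CPM. Cpa1, a carboxypeptidase, was at 135 and 87.2 CPM, and Pnlip, the pancreatic lipase, was at 41.3 and 17.8 CPM. Cel, Prss1, Prss2 and Amy2a5 had no UMI at either stage.

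Among the most abundant transcripts of the Sertoli cells, Malat1, a nuclear noncoding RNA, was at 8796 and 6218 CPM and Eef1a1, a translation factor, at 7587 and 5300 CPM, while Ptma, Hsp90ab1 and Ppia differed by 0.01, 0.02 and 0.18 on the log2 scale. Gstm1, a glutathione transferase, was at 2141 and 3433 CPM in the Sertoli cells and at 363 and 238 CPM in the other somatic cells.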
